A study of Mus musculus with 4 samples.

Results

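The regions described here are RUNX1 peaks that lie close to a gene's transcription start site (TSS) but not at it, as placed by curated gene models. RUNX1 ChIP-seq, which sequences the DNA fragments that an antibody to RUNX1 pulls down from fixed chromatin, was performed on XX ovaries of CD1 mouse embryos at E14.5, freed of the mesonephros and carrying no engineered allele. The series held 2 RUNX1 ChIP replicates, each from a different pool of 80 to 100 ovaries by the labels with 20 to 30 µg of chromatin and 10 µl of antibody, and 2 input replicates of the same stage. Whole ovaries were used, so a peak cannot be assigned to one cell type. The authors merged the replicates before calling peaks, so each peak has 1 fold enrichment over background and 1 p-value, with no replicate error and no read count.

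Of the 10494 peaks in the list, 10490 lay on chromosomes 1 to 19 and X. A peak was taken when its midpoint was more than 1 kb and at most 10 kb from the nearest TSS of a curated RefSeq transcript and in no curated exon. This rule uses position alone, and it kept 685 peaks, 6.53% of those placed. The others were 7893 peaks within 1 kb of a TSS, 334 in an exon further away (exonic peaks) and 1578 non-exonic peaks over 10 kb away (distal peaks).

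RUNX1 is a transcription factor that binds DNA together with its partner CBFB, and its preferred site has the core TGTGGT or TGCGGT. In the fetal ovary it is made by the pre-granulosa cells, the supporting cells that later surround the oocytes. Sequence a few kb from a TSS holds introns, alternative promoters and enhancers, and many promoters lie in CpG islands, stretches rich in G, C and unmethylated CpG.

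The sequences of 3 peaks of high fold that hold a RUNX core show what such a region looks like. They are the forward strand of mm10 (GRCm38), 5′ to 3′, with each core in capitals. ACCACA and ACCGCA are the same cores read on the other strand.
Meis1, chr11:19020385-19020684: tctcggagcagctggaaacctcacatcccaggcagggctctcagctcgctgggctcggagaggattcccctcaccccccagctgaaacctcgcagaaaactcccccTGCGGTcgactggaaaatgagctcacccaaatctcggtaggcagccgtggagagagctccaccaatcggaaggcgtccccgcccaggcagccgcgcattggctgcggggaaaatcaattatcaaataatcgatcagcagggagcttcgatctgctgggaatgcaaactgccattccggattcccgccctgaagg
Grhl3, chr4:135570270-135570569: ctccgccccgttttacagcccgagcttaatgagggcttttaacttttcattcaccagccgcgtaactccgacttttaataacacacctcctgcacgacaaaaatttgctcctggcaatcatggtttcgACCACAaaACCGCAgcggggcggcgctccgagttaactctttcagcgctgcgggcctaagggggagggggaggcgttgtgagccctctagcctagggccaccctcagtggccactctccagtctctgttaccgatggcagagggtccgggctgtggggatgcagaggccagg
Pdgfa, chr5:138997465-138997764: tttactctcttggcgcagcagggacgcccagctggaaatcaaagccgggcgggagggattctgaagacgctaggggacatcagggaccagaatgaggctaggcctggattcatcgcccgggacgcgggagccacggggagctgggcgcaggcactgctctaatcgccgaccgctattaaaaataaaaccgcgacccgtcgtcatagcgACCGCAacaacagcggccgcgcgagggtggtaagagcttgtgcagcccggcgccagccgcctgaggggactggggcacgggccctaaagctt
The Grhl3 peak held both forms close to each other and to its midpoint. The Meis1 and Pdgfa peaks held a single TGCGGT core each.

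Shorter stretches of 41 bases, centred on the core nearest to the peak midpoint, are shown for the genes of the pre-granulosa and Sertoli lists that have such a core (Lgr5 and Fgfr2). The remaining stretches are from other peaks with a core among the 15 of highest fold, and these 7 were chosen after their values were seen.
Lgr5, chr10:115586418-115586458: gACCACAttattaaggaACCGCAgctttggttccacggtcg
Fgfr2, chr7:130265313-130265353: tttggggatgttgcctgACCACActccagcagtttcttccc
Lix1, chr17:17397780-17397820: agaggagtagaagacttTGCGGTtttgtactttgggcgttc
Hes1, chr16:30063683-30063723: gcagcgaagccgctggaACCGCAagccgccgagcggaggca
Irgq, chr7:24529045-24529085: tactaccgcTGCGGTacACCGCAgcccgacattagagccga
Tnrc18, chr5:142822920-142822960: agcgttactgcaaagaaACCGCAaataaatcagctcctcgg
Rnf157, chr11:116418536-116418576: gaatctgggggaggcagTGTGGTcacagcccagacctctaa
Axl, chr7:25781842-25781882: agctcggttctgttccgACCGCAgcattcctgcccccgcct
Cuedc1, chr11:88162222-88162262: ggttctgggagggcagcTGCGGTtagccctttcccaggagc
The stretch at Lgr5 held both forms, and that at Irgq held a TGCGGT core on each strand. Of the other 7, 5 showed TGCGGT (Lix1, Hes1, Tnrc18, Axl and Cuedc1) and 2 showed TGTGGT (Fgfr2 and Rnf157).

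RUNX1 peaks thinned out quickly with distance from the TSS and then kept a near level density. There were 27.9 non-exonic peaks per Mb of non-exonic sequence at over 500 and up to 1000 bp, 6.16 (95% exact Poisson interval 5.19 to 7.25) at up to 1500 bp and 2.69 (2.06 to 3.45) at up to 2000 bp. From 2 to 5 kb the density was 1.48 (1.28 to 1.71) and from 5 to 10 kb it was 1.53 (1.35 to 1.71), close to the 1.40 (1.27 to 1.55) from 10 to 20 kb. Over the whole range of 1 to 10 kb it was 1.88 per Mb (1.74 to 2.03) in 364 Mb, against 147 within 1 kb of a TSS and 0.759 in all non-exonic sequence beyond 10 kb. These intervals cover counting error only.

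**Figure D1:**
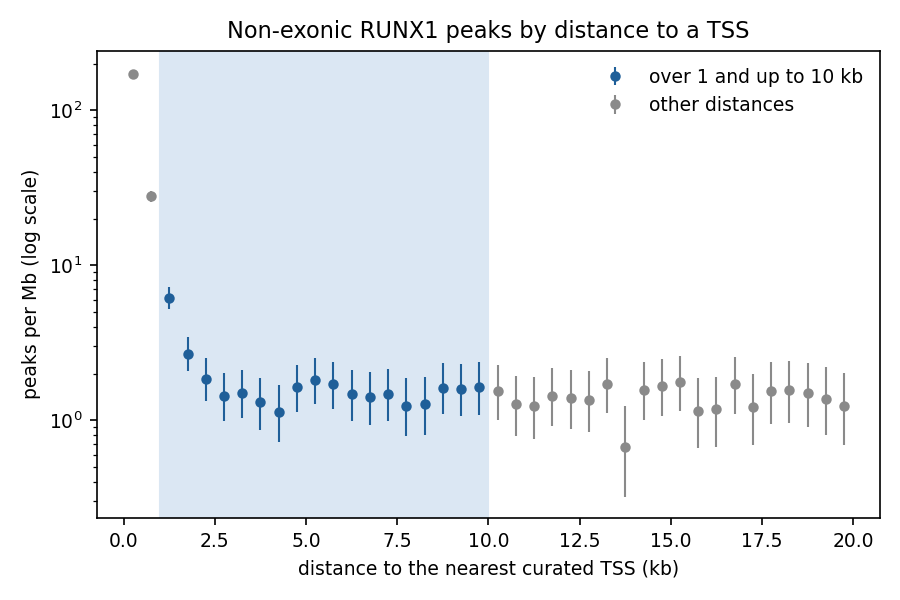
Density of non-exonic RUNX1 peaks (peaks per Mb of non-exonic sequence, log scale) in bins of 500 bp by distance to the nearest curated TSS in kb. Points are bins with 95% exact Poisson intervals; the shaded range is over 1 and up to 10 kb, where the density went from 6.16 per Mb in its first bin to 1.63 in its last.

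The 685 peaks were spread over both sides of the TSS, with 350 upstream and 335 downstream of the nearest TSS. In all, 325 lay in an intron and 360 outside any curated gene. Of the intronic peaks, 280 were in the gene whose TSS was nearest, 194 of them in its intron 1, and 45 were in another gene only. At over 1 and up to 2 kb, the density was 5.87 per Mb (4.875 to 6.998) in introns downstream of the nearest TSS and 3.495 (2.70 to 4.45) in non-genic sequence upstream of it. At over 5 and up to 10 kb this order was turned, with 1.01 (0.801 to 1.27) in those introns and 1.95 (1.64 to 2.31) in that upstream sequence. The intronic share of the peaks was 67.5% at 1 to 2 kb, 43.5% at 2 to 5 kb and 35.7% at 5 to 10 kb. Introns made up 25.5 of 46.5 Mb, 69.3 of 130.3 Mb and 96.2 of 187.5 Mb of the non-exonic sequence in these classes. Over 1 to 10 kb the density was 1.70 per Mb (1.52 to 1.90) in introns and 2.08 (1.87 to 2.30) in non-genic sequence.

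Peaks just inside and just outside the limits of the rule are given here with no test. The 53 non-exonic peaks at over 900 and up to 1000 bp had a median fold of 6.4 and the 35 at over 1000 and up to 1100 bp one of 7.4, with a RUNX core in 23 and 19 and CpG-island-like sequence in 42 and 27. The 28 peaks at over 9500 and up to 10000 bp had a median fold of 6.35 and the 26 at over 10000 and up to 10500 bp one of 6.73, with a core in 15 and 17.

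The fold of the 685 peaks had a median of 6.85, quartiles of 5.09 and 10.31, and a range from 4.01 to 180.50. High fold, here a value of 8 or more, was seen in 265 of them (38.7%), against 32.1% of all peaks. The share was 32.1% among peaks within 1 kb of a TSS (odds ratio 1.33, 95% interval 1.13 to 1.57, adjusted p = 8.57e-04), 31.9% among the distal peaks (1.35, 1.113 to 1.632, adjusted p = 0.00197) and 20.7% among the exonic peaks (2.42, 1.77 to 3.34, adjusted p = 1.43e-08, two-sided Fisher's exact tests with Benjamini-Hochberg adjustment over 3). Peaks of high fold were thus more frequent at 1 to 10 kb than in each of the other 3 positions. With predicted RefSeq transcripts among the gene models, the odds ratios against the peaks within 1 kb and against the distal peaks were 1.17 and 1.10 and no longer past the threshold. Among peaks with a p-value under 1e-20, the odds ratio against distal peaks was 0.531 (Fisher's exact test, adjusted p = 0.0146), the opposite direction. By p-value the order of the positions was another. A listed value under 1e-20 was seen in 31.5% of the 685 peaks and in 33.6% of all peaks. The share was 37.05% within 1 kb of a TSS, 23.05% among exonic and 19.5% among distal peaks, and these shares were not tested.

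**Figure D2:**
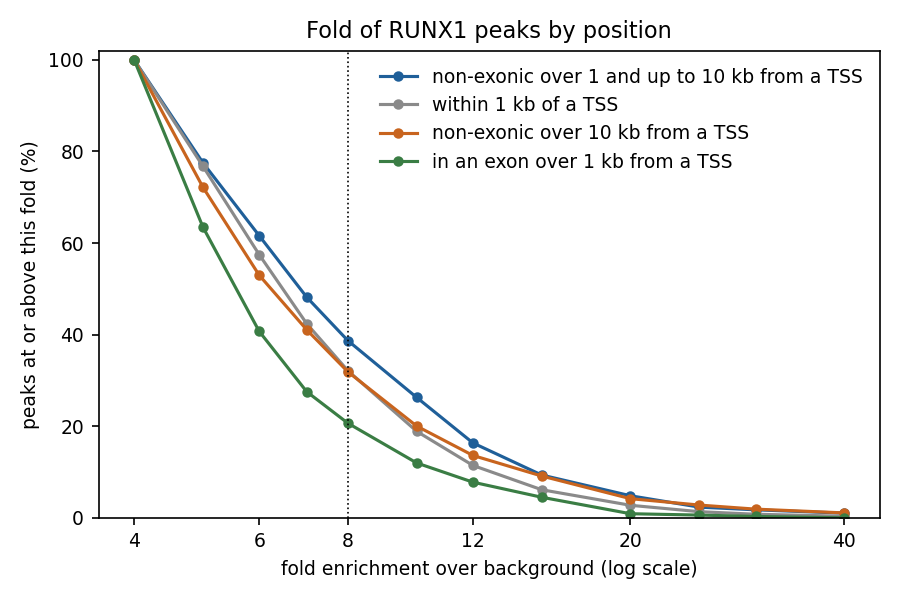
Share of peaks (%) at or above each fold enrichment over background (log scale) for 4 positions relative to the TSS. At a fold of 8 (dotted line) the 685 peaks at 1 to 10 kb stand at 38.7% and the exonic peaks at 20.7%.

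Few peaks made up the upper end. The strongest, upstream of Zc3h4, a zinc finger protein gene, had a fold of 180.50 at chr7:16399822-16400121, 1224 bp from the TSS, with a p-value listed as 0 and no RUNX core. The peak at 2310008N11Rik, 9125 bp upstream of its TSS and without a core, had a fold of 111.07 and a p-value of 2.54e-50. Meis1, a homeobox partner of HOX proteins, had a peak of fold 77.75 at 1566 bp upstream. Grhl3, a grainyhead factor of epithelia, had one of fold 44.43 in intron 1, 3212 bp downstream. Pdgfa, a ligand of the PDGF receptors, had one of the same fold 2671 bp upstream. Of the 685 peaks, 657 shared both fold and p-value with another peak of the list, as 95.8% of all peaks did.

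Another 9 of the 15 highest folds ran from 26.84 to 40.73. Upstream of a TSS lay those of Lix1 (40.73, 4865 bp), Hes1 (32.21, 1637 bp), Irgq (31.84, 1585 bp), Thrsp (31.47, 7481 bp), Tnrc18 (30.31, 5282 bp), Rnf157 (29.62, 5513 bp) and Cuedc1 (26.84, 7329 bp, in an intron of another transcript of the same gene). Downstream in an intron lay those of 4931414P19Rik (30.78, 2405 bp) and Axl (27.95, 6938 bp), a receptor tyrosine kinase gene. The Thrsp peak held no RUNX core but a match to the CTCF motif. In all, 11 of these 15 peaks held a RUNX core and 7 were CpG-island-like. The distances given are to curated start sites. A predicted RefSeq or GENCODE start lay nearer, at 113 bp for Zc3h4, 884 bp for Meis1, 245 bp for Pdgfa, 664 bp for Hes1, 252 bp for Tnrc18 and 25 bp for Cuedc1. None of the other peaks among the 15 had such a start within 1 kb.

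A RUNX core was found in 368 of the 685 peaks (53.7%), against 39.9% of all peaks. In the same peaks, the window of 300 bp that begins 1 kb to the right held a core in 19.5%, against 53.9% of the peaks themselves (661 pairs, of which 284 held it in the peak only and 57 in the window only, exact McNemar test, p = 2.24e-37). Of the 1212240 windows of 300 bp at the same distances, outside exons and in no peak, 23.5% held a core, and 21.8% when weighted to the GC content of the peaks. TGTGGT was in 32.7% of the peaks and 21.97% of these windows, and TGCGGT in 28.0% of the peaks and 1.91% of the windows. Weighted to the GC content of the peaks, the windows held them in 17.1% and 5.54%. Both forms were present in 48 peaks. The shuffled core GTGTCG or GTGTTG was in 16.8% of the paired peaks and 14.1% of the windows beside them (exact McNemar test, adjusted p = 0.292).

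The cores sat in the middle of the peaks. Of 500 cores in the 685 peaks, 264 (52.8%) had their centre within 50 bp of the midpoint. There were 0.384 cores per 100 peaks per bp within 50 bp of the midpoint and 0.0874 on average beyond 500 bp. On the strand of the nearest gene read 259 cores and on the other 238. No core was found in 317 peaks, 1 in 254, 2 in 97, 3 in 16 and 4 in 1, with median folds of 6.48, 6.87, 8.15 and 8.07 for none, 1, 2 and 3.

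**Figure D3:**
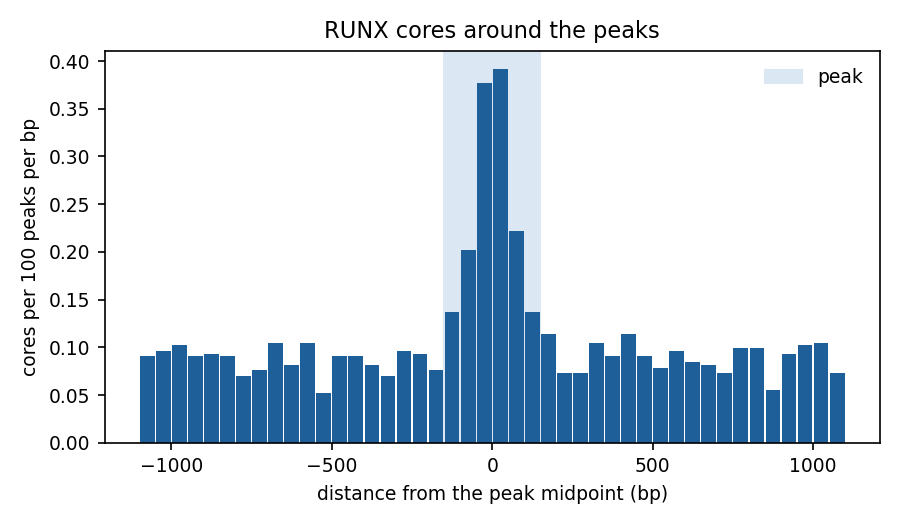
Number of RUNX cores per 100 peaks per bp (bars, bins of 50 bp) by distance from the midpoint of the 685 peaks, with the 300 bp of the peak shaded. The 2 central bins hold 0.377 and 0.391, and bins beyond 500 bp average 0.0874.

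Compared with the other positions, a core was more frequent than in TSS peaks, those within 1 kb (34.1%, odds ratio 2.24, 1.91 to 2.63, adjusted p = 2.93e-23) and the exonic peaks (40.4%, 1.71, 1.302 to 2.252, adjusted p = 7.99e-05), and less frequent than in the distal peaks (62.8%, 0.688, 0.571 to 0.828, adjusted p = 7.99e-05, two-sided Fisher's exact tests adjusted over 3). The 2 forms differed in this. TGTGGT went from 13.1% within 1 kb to 32.7% at 1 to 10 kb and 45.3% in distal peaks. TGCGGT was at 28.0%, more frequent than within 1 kb (23.4%, odds ratio 1.27, Fisher's exact tests, adjusted p = 0.0230 over the 3 positions) and than in distal peaks (23.4%, odds ratio 1.28, adjusted p = 0.0297). Against exonic peaks TGCGGT did not differ past the threshold (23.35%, odds ratio 1.28, Fisher's exact test, adjusted p = 0.130). With GC content and CpG of each peak as covariates in a logistic regression, the odds ratios of a core came to 1.22 (1.02 to 1.45), 1.16 (0.878 to 1.53) and 0.934 (0.771 to 1.13) against the peaks within 1 kb, the exonic and the distal peaks, with adjusted p of 0.0789, 0.445 and 0.485. The differences in core between positions were therefore not past the threshold once base composition was in the model.

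Stronger peaks held a core more often. In the highest quartile of fold (10.31 to 180.50), 110 of 172 peaks held one (64.0%), against 77 of 174 (44.3%) in the lowest (4.01 to 5.09, odds ratio 2.23, 1.42 to 3.52, two-sided Fisher's exact test, p = 2.51e-04). TGCGGT went from 19.5% in the lowest to 38.4% in the highest quartile and TGTGGT from 27.6% to 36.0%, while the mean GC content was 58.4% and 58.2%. The 2 middle quartiles had a core in 53.5% and 53.3% of peaks.

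The sequence of the 685 peaks was intermediate between promoters and distal sites. CpG-island-like sequence, defined as a GC content of at least 50% and an observed over expected CpG of at least 0.6 over the 300 bp, was found in 308 (45.0%), against 77.3% of all peaks. It was found in 91.4% of the peaks within 1 kb (odds ratio 0.0768, adjusted p = 1.99e-181), 67.1% of the exonic peaks (0.402, adjusted p = 6.02e-11) and 23.2% of the distal peaks (2.70, 2.23 to 3.29, adjusted p = 5.66e-24, Fisher's exact tests adjusted over 6). Of the windows without a peak at these distances 0.515% were CpG-island-like, and 20.4% when weighted to the GC content of the peaks. The mean GC content was 58.7% ± 8.8 (SD over 685 peaks), against 43.6% in those windows. A window with at least 50% of its bases masked as repeats was rare, 5 of the 685 peaks (0.730%) against 25.2% of the windows. Reads were kept at unique positions only, which can limit signal over repeats, and the part of this in the repeat share was not tested. The repeat share differed from that of the peaks within 1 kb (0.0253%, 2 peaks, adjusted p = 8.80e-05), but not past the threshold from the distal peaks (1.27%, odds ratio 0.573, 0.167 to 1.58, adjusted p = 0.381) or the exonic peaks (0 of 334, adjusted p = 0.215, Fisher's exact tests).

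Island-like and other peaks differed in their RUNX cores, and not past the threshold in their fold. A core was found in 121 of 308 island-like peaks (39.3%) and 247 of 377 others (65.5%, odds ratio 0.341, 0.246 to 0.471, Fisher's exact test, adjusted p = 2.78e-11). TGTGGT was in 15.6% and 46.7%, and TGCGGT in 30.2% and 26.3%. High fold was seen in 39.9% and 37.7% (Fisher's exact test, odds ratio 1.10, 0.798 to 1.52, adjusted p = 0.697). In distal peaks the core was in 38.0% of island-like and 70.3% of other peaks, and in those within 1 kb in 33.0% and 46.6%. The tests within the 685 peaks by island-like sequence, by other start sites and by TSS peak were chosen after the data were seen and adjusted together over 6.

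From 1 to 10 kb the peaks changed in composition and less in strength. CpG-island-like sequence fell from 61.7% (127 of 206) at 1 to 2 kb to 48.7% (94 of 193) at 2 to 5 kb and 30.4% (87 of 286) at 5 to 10 kb (nearest against furthest class, odds ratio 3.67, 2.48 to 5.46, Fisher's exact test, adjusted p = 1.84e-11). The core was in 48.1%, 53.4% and 58.0% (Fisher's exact test, odds ratio 0.669, 0.459 to 0.975, adjusted p = 0.0524), and high fold was seen in 40.3%, 39.4% and 37.1% (Fisher's exact test, odds ratio 1.15, 0.780 to 1.68, adjusted p = 0.511). With distance taken from the nearest edge of the peak, the core passed the threshold (odds ratio 0.563, Fisher's exact test, adjusted p = 0.00707). Among island-like peaks alone the core was in 37.8%, 41.5% and 39.1% of the 3 distance classes, and among the others in 64.6%, 64.6% and 66.3%.

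**Figure D4:**
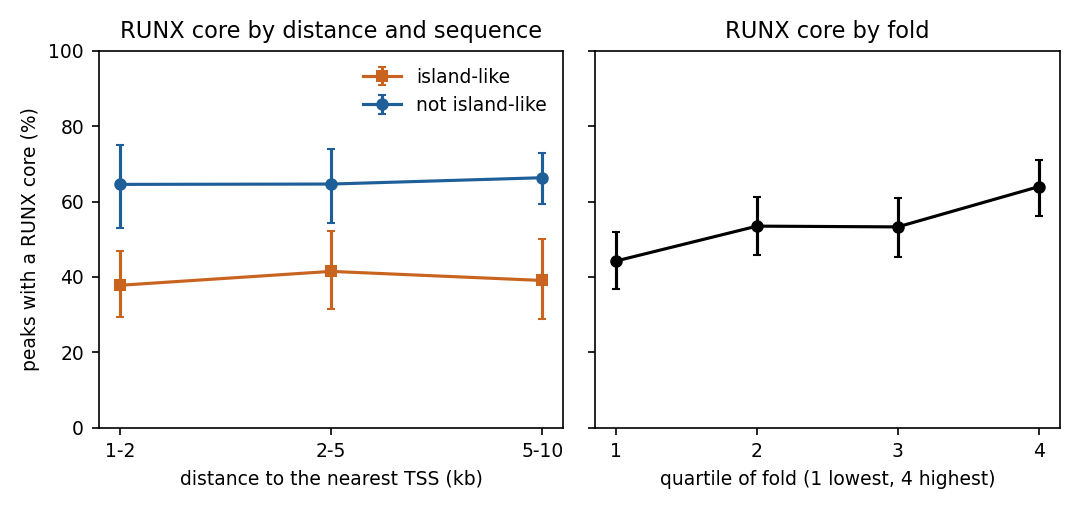
Left: share of peaks with a RUNX core (%) by distance to the nearest TSS, for CpG-island-like and other peaks among the 685; right: the same share by quartile of fold. Bars are 95% exact binomial intervals; the right panel goes from 44.3% in the lowest to 64.0% in the highest quartile, and the left panel stays between 37.8% and 41.5% and between 64.6% and 66.3%.

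Taken over 1 to 10 kb together, intronic and non-genic peaks did not differ past the threshold by these measures. High fold was seen in 35.7% and 41.4% (Fisher's exact tests, odds ratio 0.786, 0.570 to 1.08, adjusted p = 0.289), a core was found in 51.1% and 56.1% (0.817, 0.597 to 1.12, adjusted p = 0.289), and 44.9% and 45.0% were CpG-island-like (0.997, 0.729 to 1.36, adjusted p = 1). The intervals still allow differences of some size in either direction. By distance, a core was in 43.2% of intronic and 58.2% of non-genic peaks at 1 to 2 kb. It was in 46.4% and 58.7% at 2 to 5 kb, and in 65.7% and 53.8% at 5 to 10 kb. CpG-island-like sequence was in 61.15% and 62.7%, 50% and 47.7%, and 18.6% and 37.0% in the same classes. The pooled shares hide these differences, which were not tested.

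Other motifs were searched on both strands, and none of those spelled out contains another in full. Against the window 1 kb to the right, 5 of 13 passed the threshold (exact McNemar tests with Benjamini-Hochberg adjustment over 13). GGGCGG, the box of SP and KLF factors, was in 38.0% of peaks and 11.5% of windows (exact McNemar test, adjusted p = 3.49e-30). The motif of CTCF, the insulator protein, was in 4.08% and 0.605% (exact test, adjusted p = 2.21e-04), the E-box CAGCTG in 21.9% and 13.8% (adjusted p = 6.08e-04) and the ETS site CCGGAAGT in 1.51% and 0.151% (10 peaks and 1 window, adjusted p = 0.0305). Against the window to the left, the ratio of the ETS shares was 2.5 in place of 10 and not past the threshold (exact test, adjusted p = 0.190). AGATAA or TGATAA, the GATA site, was less frequent in peaks (15.7% and 21.3%, exact test, adjusted p = 0.0305). The forkhead site TATTTAC or TGTTTAC, bound by FOXL2 and its relatives, was in 6.05% and 7.56% (exact test, adjusted p = 0.353), and the NR5A site CAAGGTCA or CAAGGCCA, bound by SF1 and NR5A2, in 8.02% and 6.203% (adjusted p = 0.292). Over all windows at these distances the share was 3.48% for SP/KLF, 0.214% for CTCF, 12.1% for the E-box, 0.203% for ETS, 29.6% for GATA, 9.23% for forkhead and 5.54% for NR5A. Weighted to the GC content of the peaks, these became 26.9%, 0.457%, 20.1%, 0.417%, 11.2%, 3.37% and 5.11%, so that the GATA and forkhead shares of the peaks lay below the plain and above the weighted ones.

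The remaining motifs did not pass the threshold against the windows 1 kb to the right of the peaks. By the same exact test they were TEAD GGAATG (15.7% and 14.4%, adjusted p = 0.536), AP-1 TGACTCA or TGAGTCA (2.87% and 4.69%, adjusted p = 0.193), SOX ACAAAG or ACAATG (25.7% and 30.3%, adjusted p = 0.175), NFY CCAAT (28.7% and 31.3%, adjusted p = 0.353) and the CRE site TGACGTCA (1.66% and 0.605%, adjusted p = 0.193). Over all windows at these distances their shares were 15.5%, 5.07%, 37.6%, 36.8% and 0.167%, and that of the shuffled core 15.5%. Weighted to the GC content of the peaks, they became 13.4%, 4.39%, 22.3%, 24.4% and 0.458%, and 15.35% for the shuffled core, so that TEAD (15.2% of all 685 peaks), SOX (25.1%) and NFY (28.6%) also lay below the plain and above the weighted shares. Against the window to the left, SOX was less frequent in peaks and past the threshold (ratio of shares 0.722, exact McNemar test, adjusted p = 5.98e-04).

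**Figure D5:**
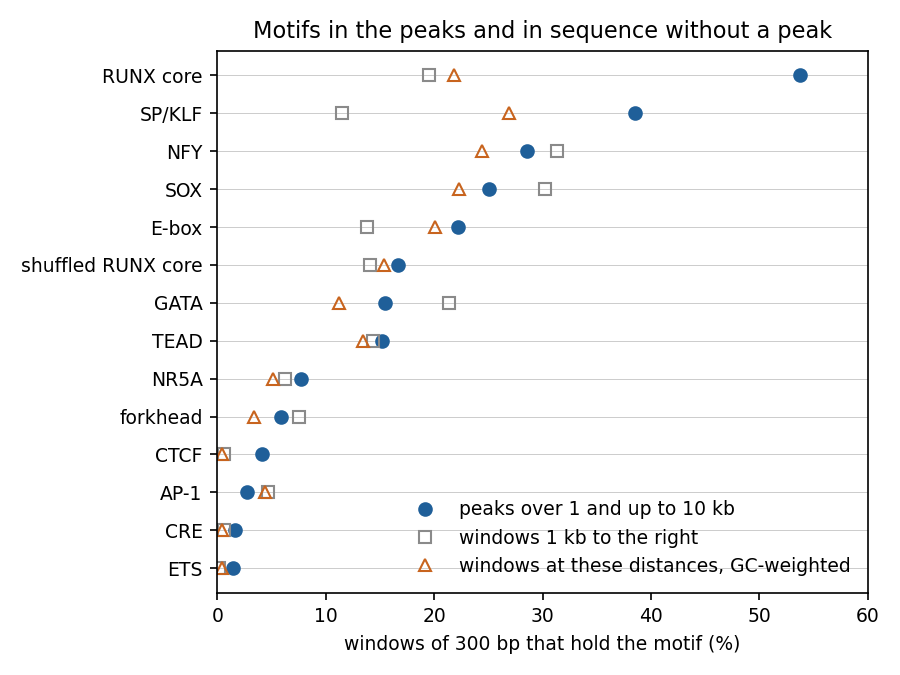
Share of windows of 300 bp (%) that hold each motif in the 685 peaks (filled circles), in the windows 1 kb to their right (open squares) and in all windows without a peak at these distances, weighted to the GC content of the peaks (open triangles). In percentage points the RUNX core stands furthest from both references (53.7% against 19.5% and 21.8%); as a ratio, CTCF and ETS stand further.

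Against the other positions, the motifs of the 685 peaks stood between those of promoters and distal sites. Compared with these TSS peaks, 8 of 13 motifs were more frequent and 2 less frequent. By Fisher's exact test, the latter were SP/KLF (38.5% and 65.8%, adjusted p = 1.03e-42) and ETS (1.46% and 5.82%, adjusted p = 1.03e-07), and among the former were GATA (15.5% and 4.21%, adjusted p = 4.23e-26), CTCF (4.09% and 0.583%, adjusted p = 2.03e-12), NR5A (7.74% and 2.62%, adjusted p = 2.80e-10) and forkhead (5.84% and 2.23%, adjusted p = 5.84e-07). Compared with distal peaks by Fisher's exact test, SP/KLF was more frequent (23.9% in distal peaks, adjusted p = 3.67e-11) and 5 were less frequent, GATA (26.4%, adjusted p = 4.96e-08), TEAD (15.2% and 21.2%, adjusted p = 0.00338), NR5A (12.1%, adjusted p = 0.00619), SOX (25.1% and 30.7%, adjusted p = 0.0196) and the E-box (22.2% and 27.0%, adjusted p = 0.0344). Compared with exonic peaks, 6 were more frequent and none less. CTCF did not differ past the threshold from distal peaks (3.802%, odds ratio 1.08, 0.656 to 1.73). These shares are not corrected for base composition, which differs between the positions.

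Many of the peaks lay near a start site outside the curated set. A predicted RefSeq or GENCODE start within 1 kb was found for 245 of the 685 (35.8%), against 20.5% of the distal peaks. It was found for 155 of 308 island-like peaks (50.3%) and 90 of 377 others (23.9%, odds ratio 3.23, 2.30 to 4.54, Fisher's exact test, adjusted p = 4.22e-12). The share in windows without a peak is not given. A start annotated slightly apart from the curated one can count for peaks just over 1 kb away, but not for distal peaks. The Mex3b peak, for example, lay 1008 bp from the curated start and 749 bp from a GENCODE start. Distance to the curated TSS was not taken into account in these comparisons. A core was less frequent in peaks with a predicted RefSeq or GENCODE start within 1 kb (45.3%) than in those without (58.4%, odds ratio 0.590, 0.425 to 0.818, Fisher's exact tests, adjusted p = 0.00211), and high fold was seen in 40.8% and 37.5% (odds ratio 1.15, 0.824 to 1.60, adjusted p = 0.620). When such peaks were left out of both the 685 and the distal peaks, high fold no longer differed past the threshold from distal peaks (odds ratio 1.21, Fisher's exact test, adjusted p = 0.115), while the differences in core and island-like sequence stayed past it. Of the 685 peaks, 6 (0.876%) overlapped one of the 1015 enhancers annotated by RefSeq, against 0.419% of all peaks and 2.03% of distal peaks, the strongest being that of 2310008N11Rik, followed by one in intron 5 of Akip1 (fold 13.88) and one upstream of Apol6 in an intron of Mb (fold 13.65). A GENCODE start lay 344 bp from the Akip1 peak, and none lay within 1 kb of those of 2310008N11Rik and Apol6.

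Another RUNX1 peak lay within 10 kb of 282 of the 685 (41.2%). The share was 22.6% for peaks within 1 kb of a TSS, 27.8% for exonic and 9.06% for distal peaks, and these shares were not tested. For 227 of the 282 the nearest one was a peak within 1 kb of a TSS, and for 42 it was another of the 685. The positions set much of this contrast. Distal peaks lie over 10 kb from every curated TSS, so few can have a TSS peak within 10 kb. The gene nearest to the peak also had a peak within 1 kb of a TSS in 243 cases (35.5%), against 40.6% of distal peaks (odds ratio 0.804, 0.664 to 0.972, Fisher's exact test, p = 0.0216). With predicted transcripts included, it came to 0.988 (p = 0.917 by the same exact test). In 232 cases the 2 peaks had the same nearest gene, and there the peak at 1 to 10 kb had the higher fold in 114 and the strongest TSS peak in 117. High fold was seen in 39.5% of the peaks whose gene had a TSS peak and 38.2% of the others (Fisher's exact test, odds ratio 1.06, 0.755 to 1.47, adjusted p = 0.744).

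The 685 peaks were nearest to 656 genes, 2.51% of the 26089 genes with a curated transcript. Of these, 548 (83.5%) were protein-coding, against 80.2% of all genes, and 25 were microRNA genes of 1190. No gene was nearest to more than 2 of the peaks, and 30 genes were nearest to 2. Nearest position does not show which gene a site acts on, and no expression was measured here.

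Of the genes of the gonad, 3 of 26 on the pre-granulosa and ovary list were nearest to such a peak, beside a background of 2.51%. These were Lgr5, a receptor for R-spondins (fold 8.20, 1266 bp downstream in intron 1, 2 cores), Nr5a2, an orphan nuclear receptor (5.22, 4536 bp downstream in intron 2) and Fst, which encodes the activin antagonist follistatin (5.05, 1580 bp downstream in intron 1). Neither of the latter held a core, all 3 were CpG-island-like, and each had another annotated start within 1 kb, 79 bp away at Nr5a2. Of the 22 Sertoli and testis genes only Fgfr2, a fibroblast growth factor receptor, had one (fold 4.70, 1609 bp downstream in intron 1, 1 core). None of 18 germ cell genes did. Of 19 interstitial, endothelial and blood genes, Nr2f2, which encodes the nuclear receptor COUP-TFII (fold 11.11, 1126 bp upstream, in intron 1 of another transcript of the same gene), and Tcf21, a transcription factor of mesenchyme (7.10, 4059 bp downstream, 1 core), had one. A GENCODE start lay 335 bp from the Tcf21 peak, and no other annotated start lay within 1 kb of the Nr2f2 peak. No list was tested against the background. For comparison, 18 of the 26 ovary genes, 11 of the 22 testis genes and 4 of the 18 germ cell genes were nearest to a peak at any position, against 33.9% of all genes.

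Of the signalling lists, Notch, BMP and WNT had shares above the 2.51% of all genes, and all 3 were also above all genes for peaks at any position. On the Notch list 4 of 21 genes had one (19.05%). These were Hes1, a repressor induced by Notch (fold 32.21, 2 cores), Maml3, a coactivator of Notch (9.49, 2559 bp downstream in intron 1), Hey2, another target (5.14, 1770 bp upstream, 1 core) and Dll4, a ligand (4.28, 3084 bp upstream of the nearest TSS and in an intron, 1 core). On the WNT list 3 of 44 had one (6.82%), Lgr5, its relative Lgr6 (4.76, 6738 bp downstream in intron 1) and Lef1, a transcription factor of the pathway (4.07, 3636 bp upstream). On the BMP, activin and TGF-beta list 3 of 39 had one (7.69%), Id2, an inhibitor of basic helix-loop-helix factors (15.92, 3894 bp upstream, 1 core), Skil, a repressor of SMAD signalling (11.37, 1017 bp upstream), and Fst. None of 28 Hippo genes did, and 21 of them were nearest to a peak at some position. So were 11 of the 21 Notch, 30 of the 44 WNT and 29 of the 39 BMP, activin and TGF-beta genes, against 33.9% of all genes. The shares above 2.51% are therefore not shown to be particular to this range.

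Of the other lists, to be read beside the same 2.51% of all genes, 1 of 19 RUNX family and partner genes had a peak at 1 to 10 kb, the corepressor gene Tle2 (fold 11.72, 4311 bp upstream). Tpm2, a tropomyosin gene, was the 1 of 28 actin and adhesion genes (20.36, 3404 bp downstream in intron 2, no core). A predicted RefSeq start lay 92 bp from the Tle2 peak, and a GENCODE start 481 bp from the Tpm2 peak. Of 28 immediate early and KLF genes 3 had one, Egr3 (10.10, 1767 bp upstream), Btg2 (6.71, 8033 bp upstream, 1 core) and Klf4 (4.36, 1020 bp downstream, 2 cores). Of 85 cytosolic ribosomal protein genes Rpl19 had one (6.08), a share of 1.18%, and 49 were nearest to a peak at some position. Of 1110 olfactory receptor genes, which the ovary is not known to use, 3 had one (0.270%), with folds of 12.03 at Olfr750, 10.18 at Olfr448 and 6.66 at Olfr1344. All 3 held a RUNX core, and those at Olfr750 and Olfr1344 also held a CTCF motif. Nearest to a peak at some position were 18 of the RUNX family and partner genes, 20 of the actin and adhesion genes, 24 of the immediate early and KLF genes and 8 of the olfactory receptor genes.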

How the data were processed

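RUNX1 ChIP and input DNA of E14.5 ovaries were sequenced. By the study's methods, the authors mapped single-end reads to mm10 at unique positions, removed duplicates, merged the replicates, called peaks, reset each to 300 bp and kept those at least 4 fold above input and local signal. Tools listed in the processing notes of the submitters were HOMER 4.9, Bowtie 1.2, bedtools 2.24.0 and Picard 1.110. The deposited list gives a position, a fold (a linear ratio to background) and a p-value for each peak; which background the fold refers to is not stated in it. Read depth behind a peak is unknown, so no precision per peak can be given. The samples' groups came from their titles, and the input entered only through the authors' filter. The genome-wide signal tracks were not analysed here.

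Peaks were placed on 45657 curated RefSeq transcripts (26089 genes) of chromosomes 1 to 19 and X of GRCm38, the assembly of mm10, from which all sequences were read; soft-masked bases counted as repeats. Ties for the nearest gene were kept. Coordinates count from 1. Peaks were compared with two-sided Fisher's exact tests with conditional odds ratios, peaks and flanking windows that touched no other peak with exact McNemar tests, and p-values were adjusted by the Benjamini-Hochberg method, with 0.05 as the threshold. Peaks are not biological replicates: a p-value describes this list, not other ovaries. Python 3.11.15, scipy 1.17.1, pandas 2.3.3 and statsmodels 0.14.6 were used, and the tests were tested on simulated data. The members and lists were chosen with earlier results of these data known. Genes named were those nearest to the 15 peaks of highest fold, those nearest to 4 or more of the peaks (none), those the paper's Results name (Fst, Nr5a2 and Nr2f2) and up to 4 of each list, except 1 that is not reported here; genes beside annotated enhancers were named after their values were seen. Alternatives were other gene models, distance from the peak edge, stricter fold and p-value limits, other flanks, single core forms, the central 100 bp and composition as covariates.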

Additional observations from a re-analysis of the deposited data

How the results depend on the processing

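With predicted RefSeq transcripts included, 750 peaks met the rule, 512 of them shared with the 685; distances from the peak edge kept 593 of its 599. With predicted transcripts, the odds ratios of high fold were 1.17 against the peaks within 1 kb and 1.10 against distal peaks, and that of a TSS peak at the same gene 0.988, all 3 no longer past the threshold, while 2 odds ratios that were never past it changed side, 1.03 for the core in intronic against non-genic peaks and 0.931 for high fold in near against far peaks. From the peak edge, the core in near against far peaks passed the threshold (0.563). Among peaks with a fold of at least 8, the core against exonic peaks (1.28) and the TSS peak (0.833) were not past it. Among those with a p-value under 1e-20, the core against exonic peaks (1.12) and the TSS peak (0.967) were not past it, and high fold against distal peaks reversed to 0.531; the cause was not tested. At a fold limit of 12, high fold against distal peaks was 1.24 and not past the threshold. With TGCGGT alone, the core was 1.28 against exonic peaks, not past the threshold, and reversed to 1.28 against distal peaks. With GC content and CpG as covariates, the odds ratios of the core were 1.22, 1.16 and 0.934 against the peaks within 1 kb, exonic and distal peaks, none past the threshold. With other start sites left out, an alternative chosen after seeing the data, high fold against distal peaks was 1.21 and the TSS peak 0.818, neither past the threshold. Against the window to the left, the ratios of TEAD and of the shuffled core reversed to 0.85 and 0.926, neither past the threshold, ETS was no longer past it and SOX passed it. Of the 122 values recomputed, 99 were unchanged in direction and side of the threshold, where these apply. Both totals include counts of peaks, genes and motifs, which have neither. The enrichment of the core over flanking windows kept its direction and side of the threshold under every setting tried. The odds ratio of repeats against exonic peaks, where none was seen, has no finite value and was not compared. No paired analysis was possible because the replicates were merged before peaks were called. Depth per peak is unknown, so weak peaks may be missing at any position, and peaks under a fold of 4 are not in the list.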

Other observations

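Among the 30 genes nearest to 2 of the peaks, 4 are described here, chosen after their values were seen. Nfia, a transcription factor gene, had peaks of fold 24.99 and 8.56 at 2342 and 5282 bp upstream of the nearest TSS. Both lay in intron 1 of another transcript of the same gene. Pdgfb, a ligand gene of the PDGF receptors, had peaks of fold 16.66 and 6.73 in an intron, 2141 and 2714 bp downstream. Ccnd3, a D-type cyclin gene, had peaks of fold 17.40 at chr17:47595573-47595872 and 6.17 at chr17:47511177-47511476, in different introns and 2256 and 6276 bp downstream of different start sites. Meis1 had a second peak of fold 4.53, 8531 bp upstream, beside that of fold 77.75. At Nfia, Ccnd3 and Meis1 the stronger peak held 1 RUNX core and the weaker none, and neither peak at Pdgfb held one. A predicted RefSeq or GENCODE start lay close to the stronger peaks at Pdgfb (367 bp), Ccnd3 (345 bp) and Meis1 (884 bp). At Nfia such a start lay 104 bp from the weaker peak, and none lay within 1 kb of the stronger.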
